A study of Homo sapiens with 20 samples.

Results

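The genes described here are 10 members of the bone morphogenetic protein (BMP), activin and ID system, taken by symbol from the 60271 genes in the deposited tables: the activin subunits INHBA and INHBB, the ligands BMP2, BMP4 and BMP7, the activin antagonist FST, and the BMP target genes ID1, ID2, ID3 and SMAD6. They were measured by mRNA sequencing in MDA-MB-468, an epithelial cell line from triple negative breast cancer with an amplified EGFR gene. Cells of all groups were deprived of serum, and those given epidermal growth factor (EGF) received 50 ng/mL for 12, 24, 48 or 72 h, while control cells were left untreated. Each of the 5 groups had 4 libraries that the labels call biological replicates, and all groups were seeded and harvested at the same times, so that only the moment of EGF addition differed. The study used EGF in this line to induce epithelial-mesenchymal transition (EMT), and all samples come from 1 cell line.

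BMPs and activins are secreted dimers of the TGF-beta family that bind pairs of serine/threonine kinase receptors. BMP receptors phosphorylate SMAD1, SMAD5 and SMAD9, activin receptors phosphorylate SMAD2 and SMAD3, and both groups act with the shared partner SMAD4, which MDA-MB-468 is known to lack. The ID proteins, classical BMP targets, have a helix-loop-helix domain but no DNA-binding region, so that they hold E proteins such as TCF3 away from DNA, and they are linked to growth and to the restraint of differentiation in epithelial cells.

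INHBA and ID1 rose at every time point after EGF, INHBA from 0.934 ± 0.211 to between 17.2 and 52.7 CPM and ID1 from 1.59 ± 0.299 to between 6.22 and 20.7 CPM (mean ± SD, n = 4 libraries). ID2 and ID3, of the same family as ID1, fell at every time point. BMP2 fell from 24 h on, BMP7 was lower at each time, FST rose at 12, 24 and 72 h, and BMP4 was higher at 12 h but lower at 48 and 72 h. INHBB and SMAD6 showed small differences that depended on the setting of the test. CPM are the usual counts relative to the size of a library, here scaled by TMM, a method that centers the bulk of genes between libraries. Log2 fold changes and p come from the quasi-likelihood test of edgeR. The SE of a log2 fold change was calculated from that change and the F statistic of the test. The p was adjusted by Benjamini-Hochberg for the 16522 genes that passed a filter on low counts. All 10 members passed that filter, FST with 3 of 4 control libraries over its limit, and the call threshold was an adjusted p under 0.05.

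The libraries held 15611961 to 25856953 counts, with 9.03 to 12.6% of them from mitochondrial genes in the control, 7.69 to 11.3% at 12 h, 11.1 to 13.8% after 24 h, 9.83 to 16.9% after 48 h and 12.3 to 16.4% in the 72 h group, and the part of this shift in the results was not tested. Variance between replicates was 3.53 to 57.5 times the counting noise over 30 pairs of libraries, so no library was taken as a repeat of another. The epithelial markers EPCAM, CDH1, KRT8, KRT18 and KRT19 were present in every group, EGFR was at 3470 ± 103 CPM in the control, and PGR was at 0 in all libraries. ESR1 and ERBB2 were low but not absent, with group means of 2.33 to 5.76 and 8.87 to 21.5 CPM. The sum of 8 markers of leukocytes, endothelium and fibroblasts was 8.17 to 10.9 CPM in the controls and 26.2 to 46.3 CPM over the EGF libraries. Most of that difference was CD68, a lysosomal gene that rose from 1.15 ± 0.331 to 26.7 ± 2.13 CPM at 72 h and whose exons overlap another annotated gene on the same strand over 81.7% of their length. Without CD68 the sum was 7.16 to 10.1 CPM in the controls and 9.55 to 18.3 CPM in the EGF libraries, and PTPRC, CD3E, VWF, COL1A2 and PDGFRB were at or near 0, while PECAM1 had group means of 0.374 to 4.2 CPM and COL1A1 rose from 6.18 ± 1.39 to 13.9 ± 0.898 CPM at 72 h. The part of these markers in the results was not tested.

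EGF moved a large share of all genes, against which the counts of members are to be read. At 12 h, 8 of the 10 members passed the test, 4 higher and 4 lower, where 69.4% of all genes tested did (32.9% higher, 36.5% lower). The 24 h comparison called 7 members, 3 higher and 4 lower, against 58.8% of all genes (29.2% higher, 29.6% lower). After 48 h there were 8, of which 2 were higher and 6 lower, against 45.8% (24% higher, 21.8% lower), and after 72 h there were 9, of which 3 were higher and 6 lower, against 61.6% (30.6% higher, 31% lower). The 4 EGF and 4 control libraries did not overlap for 7, 7, 7 and 8 members at 12, 24, 48 and 72 h, where this held for 60.8, 48.2, 34.9 and 52% of all genes. The median size of the members' log2 fold changes, regardless of sign, was 0.79, 0.886, 0.633 and 0.718 at 12, 24, 48 and 72 h, and over all genes tested it was 0.591, 0.424, 0.3 and 0.445. All 4 time points were compared with the same 4 control libraries.

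**Figure D1:**
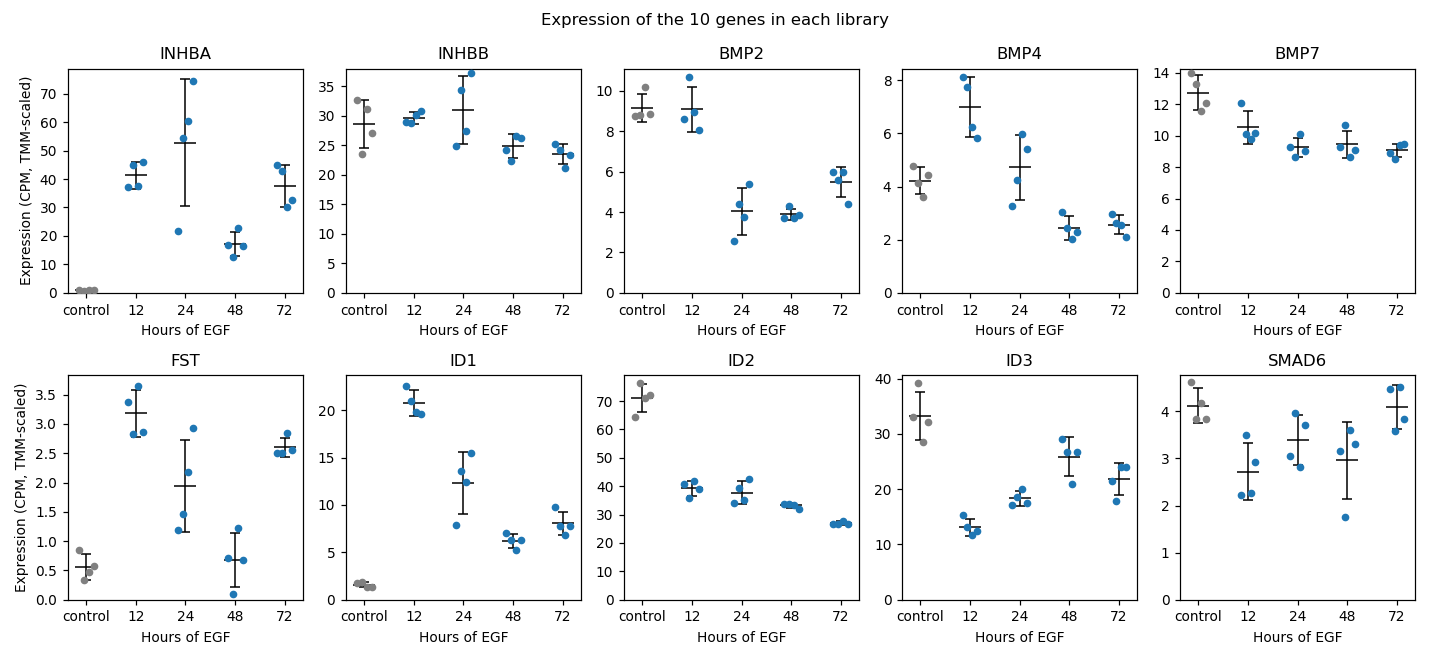
Expression of the 10 genes in each of the 20 libraries, with CPM after TMM scaling on the vertical axes (each starting at 0) and hours of EGF on the horizontal axes; grey points are control libraries, blue points EGF libraries, and black bars the mean ± SD of 4 libraries. INHBA and ID1 lie above all controls at each time and ID2 lies below all controls, while BMP4 is above the controls at 12 h and below them at 48 and 72 h.

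INHBA encodes the beta A subunit, which as a homodimer forms activin A. The gene lies at chr7:41667168-41705834 on the minus strand (GRCh38, GENCODE 29, as are all gene positions here), with 8 merged exons. In the control libraries INHBA was at 1.11, 0.673, 0.854 and 1.11 CPM, from 16 to 23 counts each. The 12 h levels were 37.1, 44.9, 37.4 and 45.9 CPM, and those after 24 h 21.6, 54.4, 60.5 and 74.4 CPM. Every treated library was far above every control, and the 24 h group was the most widely spread. At 48 h the levels were 16.9, 12.6, 22.8 and 16.4 CPM, and at 72 h they were 45, 42.9, 30.3 and 32.5 CPM. The levels thus lay lower at 48 h than before and after it.

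Against the control, the log2 fold change of INHBA was 5.48 ± 0.40 at 12 h (44.5-fold, adjusted p = 1.93e-09) and 5.83 ± 0.40 at 24 h (adjusted p = 1.39e-09). It was 4.21 ± 0.41 at 48 h (18.6-fold, adjusted p = 2.99e-07) and 5.35 ± 0.40 at 72 h (adjusted p = 4.08e-09). With the normalized values that the authors deposited, INHBA was 6.50 higher at 12 h and 5.03 higher at 48 h on the log2 scale, but those values carry a factor that differs between genes and libraries. Their ratio to the counts, relative to the median ratio of the library, ranged over 1.42 on the log2 scale among the 20 libraries in INHBA, with a median of 0.42 over 9092 genes with at least 100 counts in each library. Tested directly, INHBA fell by 1.61 on the log2 scale between 24 and 48 h (SE 0.28, adjusted p = 0.000147), with 3 of 4 libraries at 48 h below all of those at 24 h. It rose again by 1.13 ± 0.28 between 48 and 72 h (adjusted p = 0.00449). The 24 h and 12 h groups differed by 0.35 ± 0.27 (adjusted p = 0.283). Without EGF 24 h replicate 1, the lowest library of its group for 8 of the 10 members, that difference was 0.61 with an adjusted p of 0.00363, and that between 72 and 24 h went from -0.48 (adjusted p = 0.169) to -0.74 (adjusted p = 0.000959). That library held 20353401 counts and 13% mitochondrial counts, both within the range of the others.

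INHBB, at chr2:120346143-120351808 on the plus strand, encodes the beta B subunit of activin B. Its control libraries lay between 23.6 and 32.6 CPM, and those of the EGF groups between 28.7 and 30.8 at 12 h, 24.9 and 37.2 at 24 h, 22.4 and 26.6 at 48 h and 21.2 and 25.3 CPM at 72 h. The groups overlapped with the control at each time. INHBB passed the test at 72 h, at -0.28 ± 0.11 (adjusted p = 0.0336), with 2 of 4 libraries below all controls. The call was lost without control replicate 1 (-0.21, adjusted p = 0.128), control replicate 3, EGF 72 h replicate 3 or EGF 72 h replicate 4, and under 3 other settings. At 12, 24 and 48 h the log2 fold changes were 0.05 ± 0.11, 0.12 ± 0.11 and -0.20 ± 0.11 (adjusted p = 0.692, 0.376 and 0.145). Without control replicate 2, the 48 h difference was -0.28 (adjusted p = 0.0332). From 24 to 48 h INHBB fell by 0.32 (SE 0.11, adjusted p = 0.0204), and this call did not hold when replicate 2 or 4 of the 24 h group or replicate 2 of the 48 h group was left out (adjusted p of up to 0.122), and under 2 other settings.

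The balance of the activin subunits can be set out per kilobase of merged exon, 8302 bases for INHBA and 3204 for INHBB. In the control, INHBA made up 1.24% ± 0.229 and INHBB 98.8% ± 0.229 of their summed level of 9.04 CPM per kb. The INHBA share in the 12, 24, 48 and 72 h groups was 34.9% ± 2.58, 38.1% ± 9.3, 20.8% ± 3.03 and 37.9% ± 3.15. On this scale INHBB had the larger share in all 20 libraries, at least 54.1%, but the order depends on the lengths. In CPM, with no division by length, the mean of INHBA was above that of INHBB at 12, 24 and 72 h (41.3 against 29.6, 52.7 against 31 and 37.7 against 23.5). The lengths of the transcripts present were not measured, and the annotated INHBA gene reaches beyond the RefSeq start used for its promoter, so which subunit was more abundant after EGF was not settled.

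FST encodes follistatin, a secreted protein that binds activins and keeps them from their receptors. The gene lies at chr5:53480409-53487134 on the plus strand and was the least expressed member, with 2 to 67 counts per library. Its control libraries were at 0.854, 0.336, 0.47 and 0.577 CPM. At 12 h they stood at 3.38, 2.83, 3.65 and 2.87 CPM, and at 24 h at 1.19, 1.47, 2.18 and 2.93 CPM, with all 8 above every control. At 48 h the values of 0.72, 0.0978, 1.22 and 0.68 CPM overlapped with the control, and at 72 h those of 2.51, 2.5, 2.85 and 2.55 CPM lay above it again. FST rose by 2.52 ± 0.36 at 12 h (adjusted p = 1.52e-06), by 1.81 ± 0.38 at 24 h (adjusted p = 0.000245) and by 2.23 ± 0.37 at 72 h (adjusted p = 1.4e-05) on the log2 scale. The 48 h difference of 0.34 ± 0.42 did not pass (adjusted p = 0.533) and was -0.15 without EGF 48 h replicate 3. From 12 to 24 h the difference was -0.71 ± 0.32 (adjusted p = 0.0619), and it passed without EGF 24 h replicate 4 (-0.997, adjusted p = 0.0185). Between 24 and 48 h FST fell by 1.47 (SE 0.36, adjusted p = 0.00177), and between 48 and 72 h it rose by 1.89 ± 0.35 (adjusted p = 0.000203), as INHBA did.

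BMP2, BMP4 and BMP7 encode ligands of the BMP receptors that act in the development of bone, limb and kidney. BMP2 lies at chr20:6767664-6780280 (plus strand), BMP4 at chr14:53949736-53958761 (minus strand) and BMP7 at chr20:57168748-57266629 (minus strand).

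The BMP2 level in the control libraries was 8.74, 8.79, 10.2 and 8.84 CPM, and at 12 h it was 8.59, 10.7, 8.95 and 8.08 CPM, with overlapping groups. After 24 h the level was 2.57, 4.41, 3.78 and 5.37 CPM, after 48 h it was 3.71, 4.3, 3.72 and 3.85 CPM, and the 72 h libraries were at 5.97, 5.57, 5.98 and 4.41 CPM. All 12 libraries from 24 h on were below all controls. BMP2 fell by 1.18 on the log2 scale at 24 h (SE 0.16, adjusted p = 6.37e-07), by 1.23 at 48 h (SE 0.15, adjusted p = 5.45e-07) and by 0.73 at 72 h (SE 0.15, adjusted p = 0.000188). At 12 h the difference was -0.01 ± 0.15 (adjusted p = 0.934). Tested directly, BMP2 fell by 1.17 from 12 to 24 h (SE 0.16, adjusted p = 1.48e-06), and from 48 to 72 h BMP2 rose by 0.50 ± 0.16 (adjusted p = 0.0172), a call lost without EGF 72 h replicate 1 (adjusted p = 0.0526).

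For BMP4, the control libraries were at 4.77, 4.12, 3.59 and 4.42 CPM. The 12 h libraries, at 8.13, 7.74, 6.24 and 5.83 CPM, were all above them, and the 24 h libraries, at 3.26, 4.24, 5.96 and 5.42 CPM, lay around them. At 48 h (3.05, 2.45, 2.01 and 2.27 CPM) and 72 h (2.97, 2.62, 2.57 and 2.11 CPM) all libraries were below the controls. BMP4 rose by 0.73 ± 0.17 at 12 h (adjusted p = 0.000477) and fell by 0.80 at 48 h (SE 0.18, adjusted p = 0.000845) and by 0.70 at 72 h (SE 0.18, adjusted p = 0.00175). The 24 h difference was 0.16 ± 0.17 (adjusted p = 0.45). BMP4 was the member whose called differences from the control had opposite signs, and the direct test of 48 against 12 h gave -1.53 ± 0.18 (adjusted p = 5.42e-08).

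BMP7 was at 11.6 to 14 CPM in the controls and at 9.78 to 12.1 CPM at 12 h, where 3 of 4 libraries were below all controls. It was at 8.64 to 10.1 CPM at 24 h, 8.66 to 10.7 CPM at 48 h and 8.53 to 9.45 CPM at 72 h, with all libraries below the controls. The falls were of 0.46 (SE 0.10, adjusted p = 0.000238), 0.43 (SE 0.10, adjusted p = 0.000648) and 0.49 (SE 0.10, adjusted p = 0.00011) on the log2 scale. At 12 h it fell by 0.27 (SE 0.10, adjusted p = 0.0137), but this call was lost without control replicate 1 (adjusted p = 0.0521) or EGF 12 h replicate 3 (adjusted p = 0.0514), without a filter on low counts (adjusted p = 0.102), and with the deposited normalized values in place of the counts (-0.07, adjusted p = 0.617), whose ratio to the counts ranged over 0.497 on the log2 scale in BMP7. The levels of BMP7 at successive times of EGF did not pass a direct test (adjusted p = 0.107, 0.832 and 0.684). With the deposited normalized values, in limma, BMP7 was lower at 24 h than at 12 h (-0.41, adjusted p = 0.00431). By those values it was also lower at 48 h (-0.42, adjusted p = 0.00217) and 72 h (-0.57, adjusted p = 0.000149) than at 12 h.

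The next genes are targets of BMP signals. Of the ID genes, ID1 lies at chr20:31605283-31606515 (plus strand) and forms a single merged exon, ID2 at chr2:8678845-8684453 (plus strand) and ID3 at chr1:23557918-23559794 (minus strand). A share of 1.72% of the exon bases of ID2 overlaps the antisense gene ID2-AS1, and the exons of the other members overlap no other gene. Start sites in RefSeq were given for 8 of the 10 members, without BMP2 and BMP7. The 250 bases before the start are printed for the 3 ID genes, since they moved in different directions, and for INHBA, the other gene with a large rise. They are on GRCh38.p14, written 5′ to 3′ on the strand of the gene, at chr20:31605039-31605288 for ID1, chr2:8681806-8682055 for ID2, chr1:23559502-23559751 for ID3 and chr7:41703091-41703340 for INHBA, and capitals mark matches to the motifs named after them.
ID1: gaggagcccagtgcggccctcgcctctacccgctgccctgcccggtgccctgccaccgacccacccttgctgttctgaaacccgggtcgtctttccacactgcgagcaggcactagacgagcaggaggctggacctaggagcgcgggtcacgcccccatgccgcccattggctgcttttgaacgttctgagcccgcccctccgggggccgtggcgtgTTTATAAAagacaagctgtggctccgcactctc
ID2: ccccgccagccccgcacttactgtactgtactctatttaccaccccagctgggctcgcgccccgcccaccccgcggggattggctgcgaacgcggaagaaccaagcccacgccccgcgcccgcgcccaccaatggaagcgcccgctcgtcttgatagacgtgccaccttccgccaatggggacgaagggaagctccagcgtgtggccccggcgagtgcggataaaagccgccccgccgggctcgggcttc
ID3: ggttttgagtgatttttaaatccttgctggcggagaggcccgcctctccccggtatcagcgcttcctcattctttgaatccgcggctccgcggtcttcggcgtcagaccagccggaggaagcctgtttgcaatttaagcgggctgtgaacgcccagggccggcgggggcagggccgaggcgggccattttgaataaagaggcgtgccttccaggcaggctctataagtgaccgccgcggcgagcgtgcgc
INHBA: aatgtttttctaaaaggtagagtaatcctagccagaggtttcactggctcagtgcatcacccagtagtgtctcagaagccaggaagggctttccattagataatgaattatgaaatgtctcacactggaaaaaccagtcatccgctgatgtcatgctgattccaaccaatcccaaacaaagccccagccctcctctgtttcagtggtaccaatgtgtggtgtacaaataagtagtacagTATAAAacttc

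The motifs searched on both strands, from 250 bases before to 50 bases after the start, were GGCGCC, found in the BMP response elements of ID genes, TGAGTCA (AP-1), TGACGTCA (CREB), GCGTGGGCG (EGR1), TATAAA (bound by TBP) and CANNTG (E-box, which was not put in capitals). Among 35116 promoters of the same length, 19.2% held GGCGCC, 4.95% TGAGTCA, 1.85% TGACGTCA, 0.795% GCGTGGGCG, 11.5% TATAAA and 68.7% CANNTG. ID1 held TATAAA at 2 overlapping places, 1 on each strand, starting 33 and 31 bases before the start, and INHBA held it 11 bases before the start. In ID2 and ID3 these windows had no match to any of the motifs in capitals, and ID2 had 1 match to CANNTG. Among the 8 members searched, GGCGCC was found 3 times in INHBB and 2 times at 1 of 3 starts of BMP4, and in none of the ID windows. Bases further from the start were not searched, so the ID genes are not shown to lack the element. INHBA, FST, SMAD6 and another start of BMP4 had 1 match each to CANNTG, and TGAGTCA, TGACGTCA and GCGTGGGCG had none in any of these windows. The GC content of the printed stretch was 66% for ID1, 69.2% for ID2, 62% for ID3 and 42.8% for INHBA.

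ID1 encodes the first described inhibitor of DNA binding. In the controls it was at 1.81, 1.89, 1.32 and 1.35 CPM, from 28 to 45 counts. The 12 h libraries stood at 22.6, 21, 19.8 and 19.6 CPM, those of 24 h at 7.86, 13.6, 12.4 and 15.5 CPM. Lower levels of 7.04, 6.26, 5.24 and 6.34 CPM were found at 48 h, followed by 9.79, 7.74, 6.87 and 7.79 CPM at 72 h. Every EGF library was above every control, and the 12 h libraries were above all later ones. ID1 rose by 3.70 ± 0.18 at 12 h (13-fold, adjusted p = 1.53e-14), by 2.95 ± 0.19 at 24 h (adjusted p = 2.02e-12), by 1.96 ± 0.19 at 48 h (3.88-fold, adjusted p = 1.19e-08) and by 2.34 ± 0.19 at 72 h (adjusted p = 1.64e-10) on the log2 scale. Between times it fell by 0.75 from 12 to 24 h (SE 0.15, adjusted p = 0.000182) and by 0.99 from 24 to 48 h (SE 0.16, adjusted p = 1.67e-05). From 48 to 72 h the difference was 0.39 ± 0.16 (adjusted p = 0.0661), and it passed without EGF 72 h replicate 3 (adjusted p = 0.0474).

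ID2, which in breast epithelium is tied to differentiation, was at 64.3, 76.5, 71.2 and 72.3 CPM in the controls. The 12 h libraries had 40.7, 35.8, 41.9 and 38.9 CPM, and the 24 h libraries 34, 39.2, 35.1 and 42.7 CPM. Levels of 33.8, 33.9, 33.3 and 32 CPM followed at 48 h, and the 72 h libraries had 26.8, 26.6, 27.9 and 26.6 CPM, the lowest of all groups. No EGF library reached a control. ID2 fell by 0.85 (SE 0.07, adjusted p = 3.3e-10), 0.91 (SE 0.07, adjusted p = 1.86e-10), 1.10 (SE 0.07, adjusted p = 1.56e-11) and 1.40 (SE 0.08, adjusted p = 8.16e-14) on the log2 scale at 12, 24, 48 and 72 h. The 72 h level was 0.379 times that of the control. Between 48 and 72 h the fall was 0.30 (SE 0.08, adjusted p = 0.00312), a call lost with the deposited normalized values (-0.30, adjusted p = 0.0523), while 24 and 12 h differed by -0.06 ± 0.07 (adjusted p = 0.523). The fall of 0.18 between 24 and 48 h (adjusted p = 0.0435) did not pass when any 1 of 6 of these 8 libraries was left out, with adjusted p of up to 0.203, nor under 7 other settings. A fall of 0.24 between 12 and 48 h (adjusted p = 0.00573) was a difference of 0.05 when libraries were scaled by their size only.

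ID3, often expressed together with ID1, was at 33, 39.2, 28.6 and 32.2 CPM in the controls. It was lowest at 12 h, at 15.3, 13.1, 11.8 and 12.4 CPM, and stood at 17.2, 18.5, 20.1 and 17.5 CPM at 24 h. At 48 h it was at 29.1, 26.7, 20.9 and 26.8 CPM, with 1 library within the range of the controls, and at 72 h at 21.4, 17.9, 24.1 and 24.1 CPM. The order was thus the opposite of that of ID1, whose level was highest at 12 h. ID3 fell by 1.34 (SE 0.12, adjusted p = 4.74e-10) at 12 h, by 0.86 (SE 0.12, adjusted p = 7.63e-07) at 24 h, by 0.37 (SE 0.11, adjusted p = 0.00972) at 48 h and by 0.61 (SE 0.11, adjusted p = 6.4e-05) at 72 h on the log2 scale. It rose from 12 to 24 h by 0.48 ± 0.12 (adjusted p = 0.00191) and from 24 to 48 h by 0.50 ± 0.12 (adjusted p = 0.00104), and the difference of -0.24 ± 0.11 between 48 and 72 h did not pass (adjusted p = 0.105) except without EGF 48 h replicate 3 (-0.33, adjusted p = 0.0237). Over the 20 libraries, which share their groups and their scaling, Pearson's r of log2 CPM was -0.88 between ID1 and ID3, -0.61 between ID1 and ID2, 0.43 between ID2 and ID3 and 0.92 between ID1 and INHBA. These values are descriptions of libraries that fall into treatment groups.

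**Figure D2:**
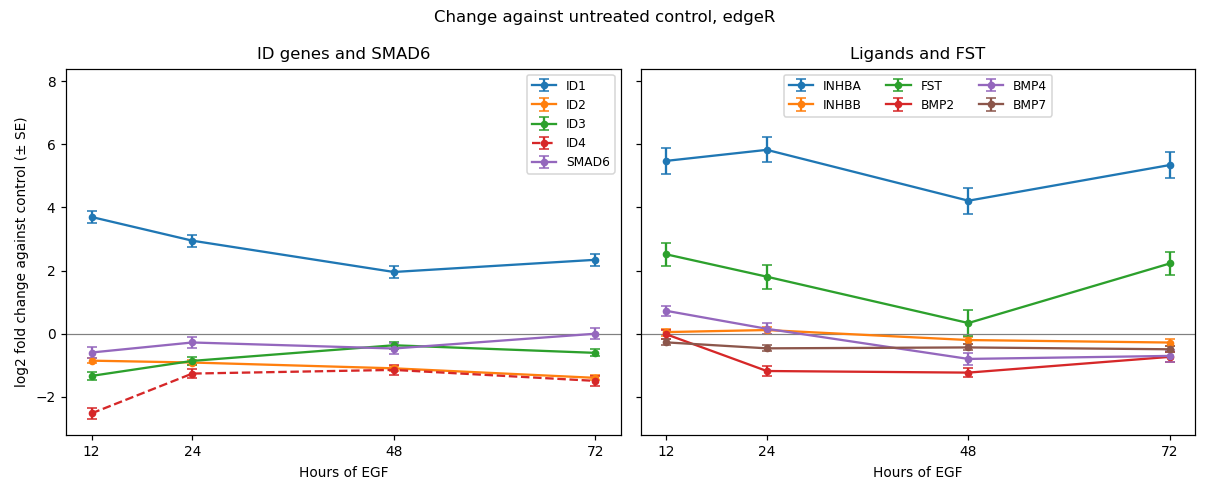
Log2 fold change against the control (vertical axes, ± SE from edgeR) by hours of EGF (horizontal axes), for the ID genes and SMAD6 on the left, with ID4 dashed since it is not one of the 10 genes, and for the ligands and FST on the right; points are fits to 4 against 4 libraries. ID1 lies between 1.96 and 3.70 while ID2, ID3 and ID4 are below 0 at each time, and INHBA and FST both have their lowest point at 48 h.

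The fourth gene of the family, ID4, which tends to be expressed in basal-like breast cancer, fell with ID2 and ID3. ID4 was at 37.3 ± 7.25 CPM in the control and at 6.49 ± 0.522, 15.5 ± 1.44, 16.8 ± 4.76 and 13.3 ± 1.03 CPM at 12, 24, 48 and 72 h. Its log2 fold changes were -2.52 ± 0.17, -1.26 ± 0.16, -1.15 ± 0.15 and -1.49 ± 0.16, with the highest adjusted p, 1.74e-06, at 48 h. Per kilobase of merged exon, with the same limit of the lengths as above, ID1 was 1.9% ± 0.359 of the summed ID level in the control. In the 12, 24, 48 and 72 h groups its share was 37.6% ± 1.47, 22.5% ± 4.14, 12.1% ± 1.11 and 17.9% ± 2.75. ID2 made up 47.4% ± 2.33 in the control and 39.9% ± 2.26 at 12 h, ID3 27.2% ± 3.31 and 16.3% ± 1.29, and ID4 23.5% ± 4.8 and 6.19% ± 0.544. At 24, 48 and 72 h the mean shares were 39, 36.3 and 33.5% for ID2 and 23.4, 34.5 and 33.2% for ID3. Those of ID4 were 15.2, 17.2 and 15.5%. The summed level of the 4 genes was 67.9 ± 1.63 CPM per kb in the control and 44.8 ± 2.28, 43.9 ± 4.13, 41.7 ± 1.82 and 36.6 ± 1.48 in the EGF groups from 12 to 72 h, with no EGF library reaching the lowest control at 65.9.

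SMAD6, at chr15:66702228-66782848 on the plus strand, encodes an inhibitory SMAD that BMP signals induce and that dampens them. Its control libraries were between 3.83 and 4.62 CPM, from 80 to 98 counts. The range was 2.22 to 3.49 CPM at 12 h, 2.82 to 3.96 at 24 h, 1.76 to 3.61 at 48 h and 3.58 to 4.52 CPM at 72 h, so that the groups at 12 and 48 h lay below the control and those at 24 and 72 h overlapped with it. SMAD6 fell by 0.60 at 12 h (SE 0.19, adjusted p = 0.00657), a call lost with the deposited normalized values (-0.19, adjusted p = 0.572), whose ratio to the counts ranged over 1.71 on the log2 scale in SMAD6. The 48 h fall of 0.47 (SE 0.18, adjusted p = 0.0386) was lost without control replicate 1, control replicate 3, EGF 48 h replicate 1 or EGF 48 h replicate 2, and was -0.29 without the last of these (adjusted p = 0.16), and 5 other settings lost it too. At 24 and 72 h the differences were -0.28 ± 0.18 (adjusted p = 0.197) and 0.00 ± 0.18 (adjusted p = 0.998). A rise of 0.47 ± 0.18 between 48 and 72 h (adjusted p = 0.0497) did not pass when any 1 of 6 of these 8 libraries was left out, with adjusted p of up to 0.187, nor under 6 other settings.

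Between successive times, 4 members passed the test from 12 to 24 h, with 1 rise and 3 falls, against 53.7% of all genes (27.9% higher, 25.9% lower). From 24 to 48 h, 7 passed, with 6 falls and ID3 as the 1 that rose, against 50.2% (25.9% higher, 24.3% lower). From 48 to 72 h, 5 passed against 35.7% (17.9% in each direction), namely INHBA, FST, BMP2 and SMAD6 upward and ID2 downward. Without EGF 72 h replicate 1 the last count was 3. Over longer steps, 8 members passed for 48 against 12 h (70.3% of all genes), 7 for 72 against 12 h (67.6%) and 5 for 72 against 24 h (40.2%), in comparisons added after the data were seen.

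The level of a library relative to others depends on the scaling. Without TMM, with scaling by library size only, the median log2 fold change of all genes was -0.337 at 12 h and -0.15 at 24 h (-0.0544 and -0.00713 with TMM), and 30.2% and 36.3% of the calls were rises in place of 47.4% and 49.6%. Upper quartile scaling gave a median of -0.216 and 37.2% rises at 12 h. The calls of members against the control kept their direction under both scalings, and the call of SMAD6 at 48 h was lost under library size only (-0.45, adjusted p = 0.0523).

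Beyond the members, 86 other genes of the pathway were listed by role, of which 54 passed the filter. Against the control, 24 of the 54 rose and 12 fell at 12 h, with 28 rises and 12 falls after 24 h, 17 and 14 after 48 h, and 26 and 17 after 72 h. These 36, 40, 31 and 43 genes compare with the shares of all genes given above, and the median log2 fold changes of 0.269, 0.301, 0.0335 and 0.0936 compare with -0.0544, -0.00713, 0.00987 and -0.00904 over all genes. From each role, up to 2 genes were taken by the number of times called and then by the size of the change.

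Among 24 other ligands, 11 were tested, of which 2 rose and 5 fell at 12 h, while 7 were higher and 1 lower at 72 h. Of all genes tested, 32.9% rose and 36.5% fell at 12 h, and 30.6% rose and 31% fell at 72 h. BMP6, a ligand best known for iron regulation, was at 0.107 ± 0.084 CPM in the control, where its libraries held 0 to 4 counts. Its levels at 12, 24, 48 and 72 h were 29.7 ± 0.993, 14.9 ± 1.03, 2.24 ± 0.381 and 6.42 ± 0.656 CPM, and it rose at each time with adjusted p of at most 1.42e-11, a fold size that the few control counts leave uncertain. GDF15, a stress-induced member of the superfamily, rose late, from 0.213 ± 0.115 CPM in the control to 1.71 ± 0.202 at 48 h and 11.4 ± 1.88 at 72 h (log2 fold change 5.69 ± 0.23, adjusted p = 3.94e-16), while the 12 h level of 0.387 ± 0.0716 did not pass (adjusted p = 0.0596).

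Of 16 receptors and co-receptors, 13 were tested, with 7 rises and 3 falls at 12 h, and 4 rises and 6 falls at 72 h. The shares over all genes are those given beside the ligands. BAMBI, a decoy receptor without a kinase domain, rose from 10.3 to 31.7 CPM at 12 h (1.62 ± 0.09, adjusted p = 7.42e-14) and was at 17.8 to 22.9 CPM at the later times, each past the test. TGFBR3, the co-receptor betaglycan, was higher at 12 h (13.2 against 9.6 CPM, 0.45 ± 0.13, adjusted p = 0.00409) and lower at 72 h (4.45 CPM, -1.12 ± 0.14, adjusted p = 3.34e-07).

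Of 16 secreted antagonists, 9 were tested, with 5 rises and 2 falls at 12 h, and 6 rises and 2 falls at 72 h. These counts too are to be read against the shares of rises and falls over all genes. SOSTDC1, an antagonist of BMP and WNT signals, fell from 11.6 ± 1.4 to 0.597 ± 0.139 CPM at 12 h (-4.26 ± 0.19, adjusted p = 2.96e-15) and stood at 2.15 ± 0.365 CPM at 72 h (-2.44 ± 0.16). FSTL3, which binds activin as follistatin does, rose from 0.85 to 6.7 CPM at 12 h (2.98 ± 0.20, adjusted p = 4.55e-12) and was at 1.91 to 3.12 CPM later, each past the test.

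Among 15 SMADs and their regulators, 13 were tested, with 7 rises and 1 fall at 12 h, 6 and 2 at 24 h, 3 and 2 at 48 h and 5 each way at 72 h, to be read against the shares of rises and falls over all genes given above. SMURF1 and SMURF2, ubiquitin ligases that mark receptors and SMADs for degradation, rose at 12 h from 42.3 to 157 CPM (1.89 ± 0.06, adjusted p = 1.38e-17) and from 43.5 to 123 CPM (1.5 ± 0.09, adjusted p = 6.69e-13), and remained higher at 72 h (92.1 and 65.5 CPM). In SMURF1, 11.7% of exon bases overlap a gene on the other strand, and no source used here states a counting by strand. SMAD4 held 0 to 5 counts in each of the 20 libraries and was not tested.

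Of 12 other BMP targets, 7 were tested, and 3, 7, 7 and 6 passed at 12, 24, 48 and 72 h. Over all genes tested, 69.4, 58.8, 45.8 and 61.6% passed at these times. Beside ID4, RUNX2, a transcription factor of bone that acts with SMADs, rose from 19.1 to 47.6 CPM at 12 h (1.32 ± 0.09, adjusted p = 7.17e-12) and was at 31.8 CPM at 72 h (0.74 ± 0.09, adjusted p = 2.56e-07). Of the 3 E proteins, the partners of ID proteins, only TCF3 was tested, since TCF4 and TCF12 held 0 to 2 counts in each library. Whether so few counts come from the cells or from the way reads were counted was not tested, so absence is not shown. TCF3 was higher at 12 h (46.9 against 35.1 CPM, 0.42 ± 0.08, adjusted p = 1e-04) and lower at 48 h (22.9 CPM, -0.62 ± 0.09, adjusted p = 2.11e-06) and at 72 h (20.1 CPM, -0.80 ± 0.09, adjusted p = 2.31e-08), with -0.07 ± 0.08 at 24 h (adjusted p = 0.483).

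**Figure D3:**
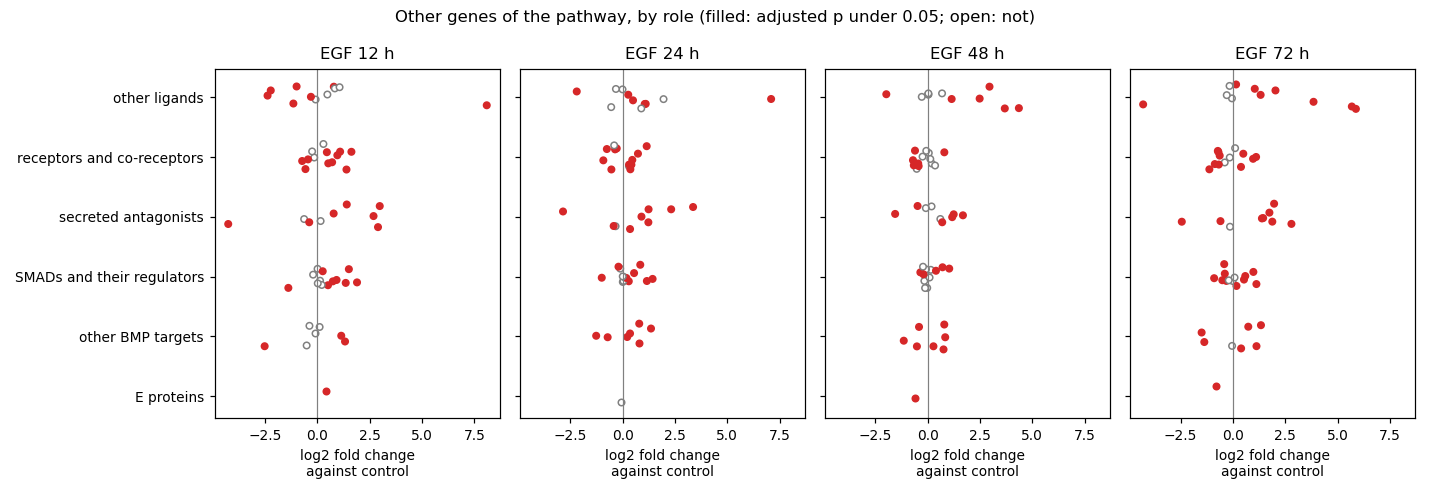
Log2 fold change against the control (horizontal axes) of the 54 other pathway genes tested, by role (vertical axis), with 1 panel per time of EGF; each point is a gene, shifted vertically to limit overlap, filled where its adjusted p was under 0.05. Filled points lie on both sides of 0 at each time, 36, 40, 31 and 43 of them at 12, 24, 48 and 72 h, and BMP6 is the point at the far right at 12 h.

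The genes whose pattern over the 20 libraries was most like that of ID1, by Pearson's r of log2(CPM + 0.5) among 13881 genes with a mean of at least 1 CPM, were RAP1GAP2 (0.988), LYPD3 (0.985) and STK10 (0.982). LYPD3 was at 40.1 ± 7.13 CPM in the control and at 297 ± 20.6, 186 ± 15.2, 96.7 ± 6.56 and 146 ± 11.8 CPM at 12, 24, 48 and 72 h, the same order of groups as ID1. For INHBA they were SERPINB3 (0.988), SFTA1P (0.985) and SERPINB4 (0.984). By ranks (Spearman's rho) their values were 0.901, 0.928 and 0.901, against 0.986, 0.98 and 0.983 for RAP1GAP2, LYPD3 and STK10. The control libraries held only 0 to 4 counts of SERPINB3 and 0 to 3 of SERPINB4. SERPINB3 was at 0.0783 ± 0.0741 CPM in the control and at 52.9 ± 8.1, 89.7 ± 22.2, 14.4 ± 3.23 and 50.2 ± 8.35 CPM, highest at 24 h and lowest of the EGF groups at 48 h, as INHBA was. SERPINB3 and SERPINB4 are near-identical neighbours whose reads can be split between them in counting, so their separate levels are uncertain.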

How the data were processed

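Libraries of the 20 samples were made with the Lexogen Corall mRNA kit and read as single ends. The aligner, the gene counter and the handling of molecular identifiers are not given in the sources used here, and the submitters' processing notes name hg38 and DESeq2. The authors deposited 10 tables with the same counts, whole numbers per gene and library that are not normalized, and 1 of them was used. Its columns of normalized values (a score that the authors derived with DESeq2) served as an alternative only. Their ratio to the counts is not 1 value per library but changes from gene to gene, and what it corrects is not given in the sources used here. The authors' fold changes and p-values for each pair of groups were not used.

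Counts were analyzed in edgeR 4.0.16 under R 4.3.3: filterByExpr (minimum count 10) on the 33535 genes with a count left 16522, libraries were scaled by TMM, and 1 model with 5 group means was fitted to all 20 libraries (glmQLFit, robust; glmQLFTest; prior count 0.125). Tests set each time against the control and against the preceding time, and 3 further pairs of times were added after the data were seen. The procedure was tested on simulated data in which a small share of genes changed, by at most 2-fold. Changes in a large share of genes, as found here, were not simulated. With no statement on strand, reads of overlapping genes cannot be told apart. Counts without stated molecular identifiers may hold PCR duplicates, and CPM under 1 rest on few counts. Alternatives used limma 3.58.1 on log2(normalized value + 1), DESeq2 1.42.0, other scalings, filters, sample choices and a replicate block. Promoters were from RefSeq.

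The members and the lists of pathway and marker genes were chosen with earlier results of these data known. Named in the main results were all members, SMAD4 and up to 2 genes per pathway role with a mean of at least 1 CPM. Genes of a role were ordered by the number of times called and by the largest change. The 3 genes most like ID1 and INHBA and markers against the labelled cell type were named too. Further genes under other observations were chosen after their values were seen. The labels call the replicates biological, and whether they were separate cultures in time is not stated, so p-values measure the spread between these samples.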

Additional observations from a re-analysis of the deposited data

Results flagged for a closer look

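In BMP2, control replicate 3 stood apart from the other control libraries, at 10.2 CPM against 8.74 to 8.84 CPM. In FST, EGF 72 h replicate 3 was at 2.85 CPM, with the others at 2.5 to 2.55 CPM. In ID2, the EGF 72 h library of replicate 3 was at 27.9 CPM, with the others at 26.6 to 26.8 CPM. These gaps passed Dixon's 95% critical value for 4 samples. They are 3 of 50 groups tested, and chance flags about 1 in 20. In BMP4, the log2 fold change against the control was 0.73 at 12 h, with all 4 libraries above all controls, but -0.80 at 48 h and -0.70 at 72 h, with all 4 below. The direct tests gave -1.53 ± 0.18 for 48 against 12 h (adjusted p = 5.42e-08) and -1.43 ± 0.18 for 72 against 12 h (adjusted p = 1.98e-07, edgeR).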

How the results depend on the processing

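Of 990 values under other settings, 920 kept their direction and side of the threshold, 34 lost a call, 11 gained one and 25 changed sign; of 800 with 1 library left out the numbers were 739, 37, 9 and 15. A prior count of 2 moved none of them. The cause of the changes was not tested. Counts of called members stayed within 1.5 times, except for 72 against 48 h, where leaving out 1 library gave 3 to 6, the lowest without EGF 72 h replicate 1. With at least 10 counts in every library, FST was not tested.

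Signs changed under scaling by library size only for INHBB (-0.233 at 12 h, -0.0288 at 24 h, 0.045 for 48 against 12 h), SMAD6 (-0.0753 at 72 h), ID2 (0.0823 for 24 against 12 h, 0.054 for 48 against 12 h), BMP2 (0.106 for 48 against 24 h), BMP7 (0.135 for 48 against 12 h, 0.0369 for 72 against 24 h) and INHBA (0.0735 for 72 against 12 h). Of these, ID2 and INHBB for 48 against 12 h had been called. Under upper quartile scaling they changed for INHBB (-0.109 at 12 h), SMAD6 (-0.022 at 72 h), ID2 (0.056 for 24 against 12 h), BMP2 (0.0169 for 48 against 24 h), BMP7 (0.0216 for 48 against 12 h) and INHBA (0.00996 for 72 against 12 h). BMP2 at 12 h was 0.00835 with DESeq2 size factors, 0.0227 without a filter and 0.0108 with the DESeq2 Wald test, and BMP7 for 72 against 24 h was 0.0216 with at least 10 counts. With the deposited normalized values FST was -0.617 at 48 h, INHBA -0.131 for 24 against 12 h, BMP7 -0.0102 for 48 against 24 h and SMAD6 -0.513 for 48 against 12 h. Apart from the 2 named, none of these had been called, nor had those that changed sign without 1 library, whose ranges were -0.0285 to 0.123 (INHBB, 12 h), -0.0977 to 0.0468 (BMP2, 12 h), -0.147 to 0.686 (FST, 48 h), -0.0445 to 0.0624 (SMAD6, 72 h), -0.0397 to 0.158 (INHBB, 24 against 12 h), -0.226 to 0.127 (BMP2, 48 against 24 h), -0.0382 to 0.0689 (BMP7, 48 against 24 h), -0.0624 to 0.0082 (BMP7, 72 against 24 h) and -0.1003 to 0.00725 (BMP7, 72 against 48 h).

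Whether replicate numbers pair the libraries was not settled. Same-numbered libraries had a median correlation of deviations of 0.0226 over 40 pairs, 8 of them over 0.1. Different-numbered libraries had a median of -0.00344 over 120 pairs, 19 of them over 0.1. Of the 20 libraries, 9 correlated best with a library of their own number. With the replicate block, 8, 7, 8 and 9 members were called at 12, 24, 48 and 72 h, as without it. The block ended the calls of ID2 for 48 against 24 h (adjusted p = 0.0502) and SMAD6 for 72 against 48 h (adjusted p = 0.0582), added FST for 24 against 12 h (adjusted p = 0.0399) and gave SMAD6 at 72 h as -0.000172. Depth limits FST and INHBA in the control, with 8 to 17 and 16 to 23 counts.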

Other observations

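SMAD genes of the pathway moved in different directions, and the receptor gene BMPR2 fell. These genes were chosen after their values were seen. SMAD1, which BMP receptors phosphorylate, fell from 56.9 to 21.7 CPM at 12 h (log2 fold change -1.39 ± 0.08, adjusted p = 3.41e-13, edgeR) and stood at 28.5, 50.9 and 30.6 CPM at 24, 48 and 72 h, of which 48 h did not pass (adjusted p = 0.0939). SMAD5, which has the same role, went from 84.8 to 101 CPM at 12 h (0.25 ± 0.10, adjusted p = 0.0286). Scaling by library size only moved the median of all genes at 12 h by about as much. SMAD5 was not tested under other settings, so its direction at 12 h is uncertain. SMAD7, an inhibitory SMAD like SMAD6, rose from 4.82 to 12.3 CPM at 12 h (1.35 ± 0.13, adjusted p = 1.45e-09), when SMAD6 was lower than in the control. The type II receptor gene BMPR2 fell from 266 to 195 CPM at 12 h (-0.45 ± 0.10, adjusted p = 0.00031) and to 165 CPM at 72 h (-0.69 ± 0.10, adjusted p = 2.03e-06).

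NOG, GREM1 and INHA were also chosen after their values were seen, and each had a mean under 1 CPM over all libraries. NOG, which encodes the BMP antagonist noggin, was at 0.221 CPM in the control and rose to 1.66 CPM at 12 h (2.90 ± 0.35, adjusted p = 9.77e-08), 1.12 CPM at 24 h (adjusted p = 7.43e-06) and 0.86 CPM at 72 h (adjusted p = 7.1e-05). At 48 h its level of 0.333 CPM did not pass (0.60 ± 0.42, adjusted p = 0.249), the time at which FST did not pass either. GREM1, another BMP antagonist, had at most 2 counts in any control, and relative to a level of 3 counts per library the 12 h group was at least 3.38-fold higher and the 24 h group at least 5.63-fold higher. INHA, whose product turns activin subunits into inhibins, was at 0.354 CPM in the control, from 6 to 10 counts per library. It rose to 2.01 CPM at 48 h (2.48 ± 0.34, adjusted p = 2.04e-06). Its mean was lower than in the control at 12 h, at 0.157 CPM from 2 to 5 counts, and higher at 24 h (0.725 CPM) and 72 h (1.48 CPM).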
